A study of Arabidopsis thaliana with 16 samples.

Results

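The genes described here are 9 members of the mitogen-activated protein (MAP) kinase cascades of Arabidopsis thaliana, taken by their locus identifiers: the MAP kinase kinase kinases MAPKKK17 (AT2G32510) and MAPKKK18 (AT1G05100), the MAP kinase kinases MKK4 (AT1G51660), MKK5 (AT3G21220) and MKK9 (AT1G73500), the MAP kinases MPK3 (AT3G45640), MPK6 (AT2G43790) and MPK11 (AT1G01560), and the phosphatase AP2C1 (AT2G30020). They are 9 of the 32833 genes listed in the count data, and all 9 had enough reads to be tested in every comparison. The 9 members were chosen with earlier results of these data known. Counts of members set beside the share of all genes are therefore descriptions and not tests of the set. The samples were whole seedlings of the mutant seu-6, which lacks most transcript of the transcriptional co-regulator SEUSS (SEU), and of the wild type Col-0. The sample labels give the same base medium, MS at reduced strength, for all samples. The mock was this medium with no NaCl or sorbitol added. In the first experiment 14-day-old seedlings were kept for 15 min in this medium with 300 mM NaCl or in the mock. In the second experiment 10-day-old seedlings were kept for 6 h in this medium with 250 mM sorbitol or in the mock. This gave 8 groups (seu-6 with NaCl, Col-0 with NaCl, seu-6 and Col-0 in the 15 min mock, seu-6 with sorbitol, Col-0 with sorbitol, seu-6 and Col-0 in the 6 h mock) with 2 biological replicates each, or 16 poly(A) RNA-seq libraries. NaCl adds both salt ions and an osmotic load, and sorbitol an osmotic load without salt. The mutant is represented by a single allele, and the kind of lesion is not given in the sources used here.

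In a MAP kinase cascade, a MAP kinase kinase kinase phosphorylates a MAP kinase kinase, which phosphorylates a MAP kinase, which in turn phosphorylates transcription factors and enzymes. In Arabidopsis MKK4 and MKK5 act redundantly on MPK3 and MPK6 in immunity, stomatal patterning and stress signalling, MKK9 also activates MPK3 and MPK6 and has been tied to ethylene and salt responses, and AP2C1 is a PP2C-type phosphatase that switches stress-activated MAP kinases off. MAPKKK17 and MAPKKK18 are abscisic-acid-induced kinases that act through MKK3, and MPK11 is the closest relative of MPK4 and responds to microbial elicitors. The cascade is switched by phosphorylation, which RNA-seq does not measure, so all values below are transcript levels.

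In the RefSeq annotation of assembly TAIR10.1, MPK3 lies at chr3:16756571-16758874 (plus strand), MPK6 at chr2:18138246-18140988 (plus) and MPK11 at chr1:202103-204440 (plus). MKK4 lies at chr1:19154323-19156338 (plus), MKK5 at chr3:7445604-7448498 (plus) and MKK9 at chr1:27639091-27640643 (minus). AP2C1 lies at chr2:12814271-12816360 (plus), MAPKKK17 at chr2:13798561-13800099 (minus) and MAPKKK18 at chr1:1469541-1470881 (plus). MKK4, MKK9, MAPKKK17 and MAPKKK18 are annotated as a single exon, and the other 5 genes have introns. The coding sequences of MKK4 and MKK5 were 81.1% identical, those of MAPKKK17 and MAPKKK18 77.2%, and those of MPK3 and MPK6 68.2%. No 50-base window of the exons of 8 members was found elsewhere in the genome, and 3.85% of the windows of AP2C1 were, so its counts carry a small uncertainty from related sequence. MPK3 shares 192 exon bases with AT3G45645 on the opposite strand, and AT3G45645 had 0 counts in all 16 libraries. MKK4 shares 204 exon bases with AT1G51670 on the same strand, a gene with 26 to 126 counts per library. AT1G51670 had 91 and 126 counts in seu-6 with NaCl, against 31 and 33 in the seu-6 15 min mock. In Col-0 it had 108 and 125 with NaCl, against 45 and 61 in the mock. Its part in the MKK4 counts was not tested. On the opposite strand, MPK6 shares 46 exon bases with AT2G09500 and 45 with AT2G43795, and MKK5 shares 22 with 4CL5.

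The 250 bases upstream of the annotated starts of MAPKKK17 and MAPKKK18 (RefSeq, TAIR10.1) are shown because these were the members that responded most to sorbitol and the only 2 of the 9 with the letters ACGTG, the core of the abscisic acid response element. Capitals mark ACGTG or its reverse complement, read on both strands. They include the palindrome CACGTG, in which a match on each strand overlaps.
MAPKKK17 (chr2:13800100-13800349, minus strand): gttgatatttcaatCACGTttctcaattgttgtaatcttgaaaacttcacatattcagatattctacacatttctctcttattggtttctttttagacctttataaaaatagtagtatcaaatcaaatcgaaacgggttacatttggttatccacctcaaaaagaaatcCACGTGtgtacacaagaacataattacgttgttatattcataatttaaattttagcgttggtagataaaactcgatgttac
MAPKKK18 (chr1:1469291-1469540, plus strand): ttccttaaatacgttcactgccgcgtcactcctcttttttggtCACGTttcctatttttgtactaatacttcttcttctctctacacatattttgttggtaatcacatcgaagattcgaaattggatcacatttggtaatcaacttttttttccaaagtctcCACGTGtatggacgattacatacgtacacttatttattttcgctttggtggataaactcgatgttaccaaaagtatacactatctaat
Each window holds 3 matches to ACGTG, of which 2 form the CACGTG, placed 81 bases before the start in MAPKKK17 and 88 bases before it in MAPKKK18. Of 27437 promoters of the same length, 22.9% held ACGTG and 6.49% held CACGTG. The 2 of 9 members with ACGTG were thus near that background, and the same 2 held CACGTG. Any link of these letters to the sorbitol response was not tested. The W-box core TTGAC, bound by WRKY factors, was in the windows of MPK6, MPK11 and AP2C1 and in 44.9% of all promoters. CCGAC, the core of the dehydration-responsive element, was in those of MKK5 and MKK9 and in 12.0% of all, and the calmodulin-binding activator motif CGCGTT was in 0 of the 9 and in 2.59% of all. A match is a description of the letters only.

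Each library held 39756463 to 42676953 reads counted in genes. SEU transcript averaged 0.958, 0.976, 0.511 and 0.545 CPM (reads of the gene relative to the reads of its library after scaling, the usual depth-normalised level) in seu-6 in the NaCl, 15 min mock, sorbitol and 6 h mock groups, against 46.7, 43.2, 53.9 and 52.2 CPM in Col-0, so the libraries matched their genotype labels. Transcripts that mark root cells (16 genes), green shoot (13 genes) and stomatal lineage (8 genes) were all detected in every group. The summed level of the root markers was 89.2 to 91.3 CPM in seu-6 with NaCl, 131 to 134 CPM in Col-0 with NaCl, 175 to 181 CPM in the seu-6 15 min mock and 223 to 226 CPM in the Col-0 15 min mock, and it was 155 to 176 CPM in the second experiment. In whole seedlings a smaller share of a tissue and less transcript per cell cannot be told apart.

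The members differed widely in how far their levels moved over the 8 groups. MPK11 spanned 56.6-fold between its highest group mean (67.5 CPM, seu-6 in the 15 min mock) and its lowest (1.19 CPM, Col-0 with sorbitol). AP2C1 spanned 16.5-fold, MAPKKK18 14.8-fold, MPK3 7.48-fold and MKK9 7.04-fold. MKK4 and MAPKKK17 spanned 3.63-fold and 3.54-fold. MKK5 and MPK6 varied least, by 1.45-fold and 1.19-fold, and in MPK6 every neighbouring pair of groups in the order of levels overlapped. By contrast, no neighbouring groups overlapped in MPK3, MPK11 or MKK4.

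**Figure D1:**
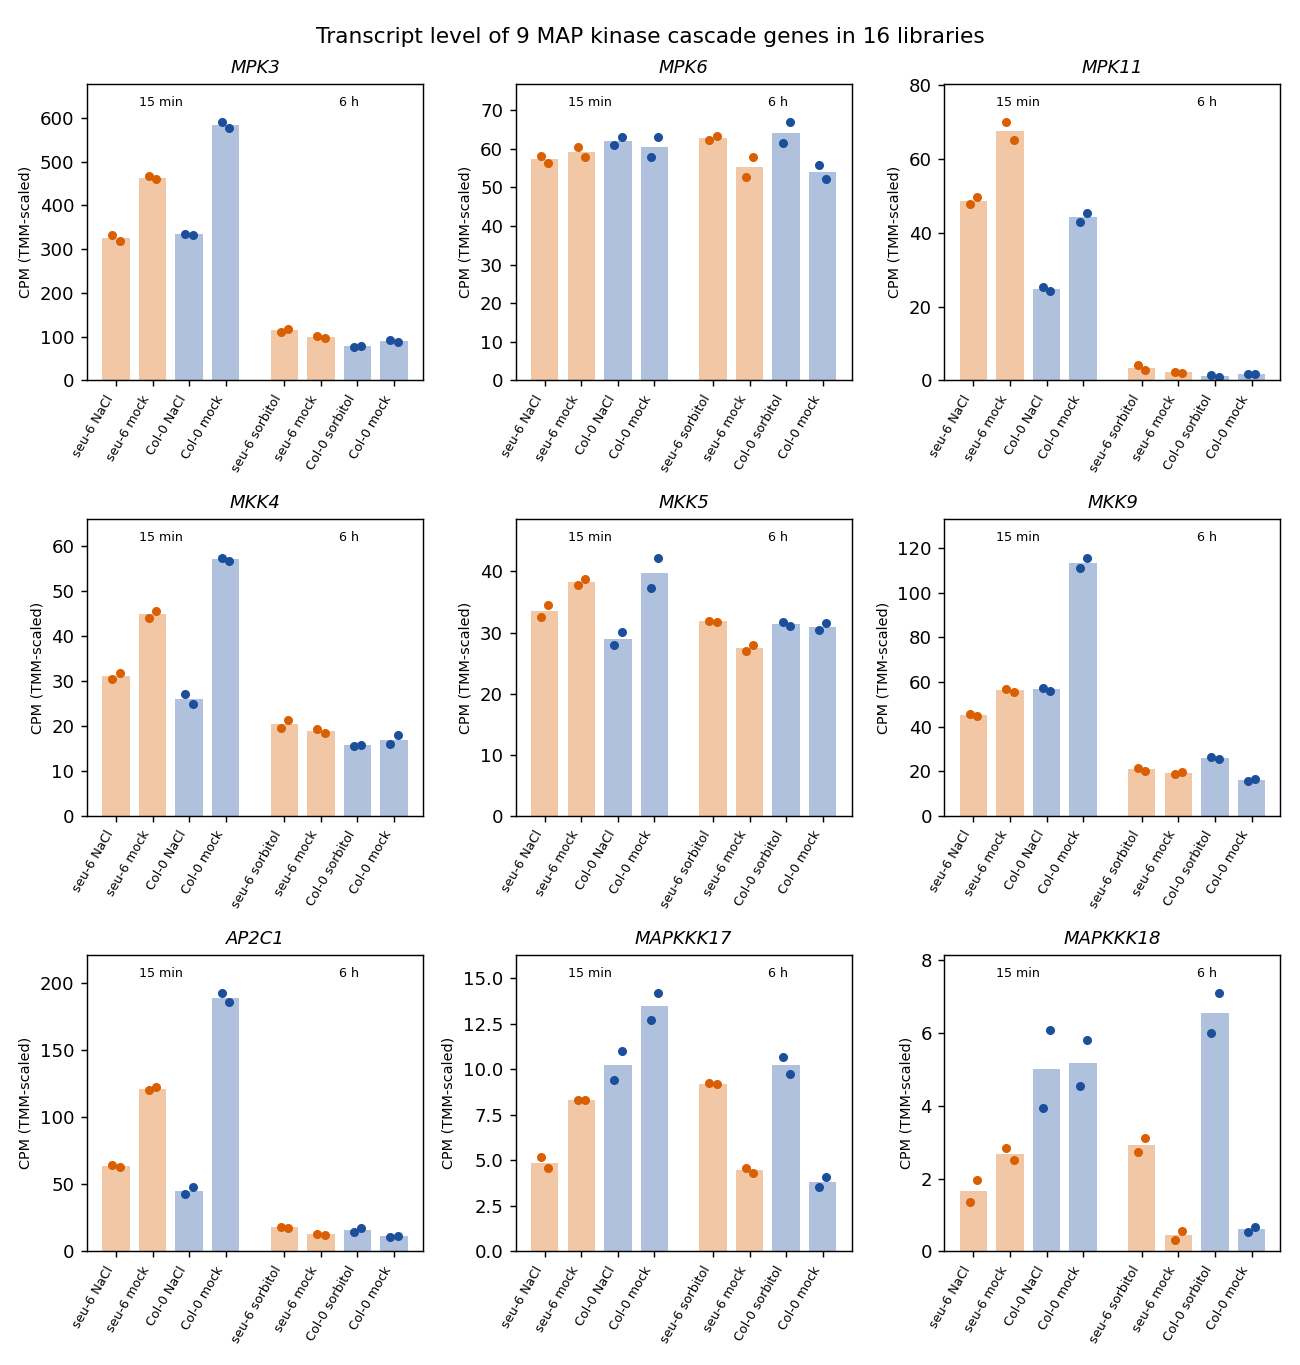
Level of each of the 9 genes in CPM on a linear axis from 0, with 1 panel per gene, bars for the mean of each group and points for its 2 libraries (seu-6 orange, Col-0 blue, the 15 min experiment on the left). MPK3, MPK11, MKK4, MKK9 and AP2C1 sit highest in the 15 min experiment, the group means of MPK6 and MKK5 stay within 1.19-fold and 1.45-fold, and MAPKKK17 and MAPKKK18 have their lowest means in the 6 h mock.

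After 15 min of NaCl, transcripts of most members were lower than in the mock in both genotypes, by the most for AP2C1 in Col-0. No sample was taken before the treatment in either experiment. A fall or a rise with a treatment here means a difference from the parallel mock. In seu-6, 8 of the 9 members were called lower and 0 higher (edgeR quasi-likelihood test, Benjamini-Hochberg adjusted p under 0.05 over all genes tested), where 29.9% of all 22066 genes tested were called and 17.9% were called lower. In Col-0, 7 members were called lower and 0 higher, where 33.4% of all genes were called and 17.6% were called lower. Because the members were chosen with earlier results of these data known, these counts are not a test of the set. The median log2 fold change of the members was -0.50 in seu-6 and -0.78 in Col-0, against -0.001 and 0.007 for all genes. No member was higher with NaCl at an unadjusted p under 0.05 either, and DESeq2 also called 0 higher, with 6 lower in seu-6 and 7 in Col-0. Root marker transcripts fell in the same comparisons, 8 of 16 in seu-6 (with 1 higher) and 7 of 16 in Col-0 (with 0 higher). Green shoot markers fell as well, 11 of 13 in each genotype. Stomatal lineage markers went the other way, with 2 of 8 higher in seu-6, 3 of 8 higher in Col-0 and 0 lower in either. The part of these markers in the result was not tested.

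Among the MAP kinase kinase kinases, MAPKKK17 had 5.20 and 4.57 CPM in seu-6 with NaCl, against 8.33 and 8.31 CPM in the seu-6 mock. It fell by 0.76 ± 0.15 on the log2 scale (SE; edgeR adjusted p = 2.2e-05). In Col-0 it had 9.42 and 11.0 CPM with NaCl, against 12.7 and 14.2 CPM in the mock, a log2 fold change of -0.37 ± 0.14 (edgeR adjusted p = 0.027). That call rests on single libraries: the adjusted p was 0.23 without Col-0 mock replicate 2 and 0.24 without Col-0 NaCl replicate 1. MAPKKK18 had 1.36 and 1.95 CPM in seu-6 with NaCl, against 2.84 and 2.50 CPM in the seu-6 mock (log2 fold change -0.68 ± 0.26, edgeR adjusted p = 0.037). DESeq2 gave an adjusted p of 0.066 for it, and edgeR gave 0.20 without seu-6 mock replicate 1, 0.066 without seu-6 mock replicate 2 and 0.30 (log2 fold change -0.45) without seu-6 NaCl replicate 1. In Col-0 MAPKKK18 had 3.93 and 6.06 CPM with NaCl, against 4.54 and 5.80 CPM in the mock, and the libraries overlapped (log2 fold change -0.02 ± 0.22, edgeR adjusted p = 0.95).

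Among the MAP kinase kinases, MKK4 had 30.5 and 31.9 CPM in seu-6 with NaCl, against 44.0 and 45.5 CPM in the seu-6 mock, and 27.0 and 24.8 CPM in Col-0 with NaCl, against 57.3 and 56.6 CPM in the Col-0 mock. Its log2 fold change was -0.52 ± 0.069 in seu-6 and -1.11 ± 0.068 in Col-0 (edgeR adjusted p = 1.1e-09 and 1.7e-25). MKK9 had 45.6 and 44.6 CPM in seu-6 with NaCl, against 56.9 and 55.7 CPM in the seu-6 mock, and 57.3 and 56.1 CPM in Col-0 with NaCl, against 111 and 116 CPM in the Col-0 mock. The level of MKK9 in the seu-6 mock thus overlapped that in Col-0 with NaCl. Its log2 fold change was -0.31 ± 0.054 in seu-6 and -0.97 ± 0.051 in Col-0 (edgeR adjusted p = 1.7e-06 and 1.1e-29). MKK5, the closest relative of MKK4, moved less: it had 32.5 and 34.4 CPM in seu-6 with NaCl, against 37.7 and 38.7 CPM in the seu-6 mock, and 27.9 and 30.1 CPM in Col-0 with NaCl, against 37.3 and 42.2 CPM in the Col-0 mock. In Col-0 it fell by 0.43 ± 0.073 on the log2 scale (edgeR adjusted p = 8.2e-07). In seu-6 the change was -0.18 ± 0.073 with an edgeR adjusted p of 0.047. That call was lost in DESeq2 (0.096), with DESeq2 size factors (0.066), with no filter on low counts (0.067), in a single fit of all 16 libraries (0.067) and without any one library other than Col-0 mock replicate 2 (0.052 to 0.26).

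Among the MAP kinases, MPK3 had 332 and 319.8 CPM in seu-6 with NaCl, against 466 and 461 CPM in the seu-6 mock, and 335 and 333 CPM in Col-0 with NaCl, against 589.8 and 576 CPM in the Col-0 mock. The genotypes thus had nearly the same level with NaCl and unequal levels in the mock. The log2 fold change was -0.50 ± 0.027 in seu-6 and -0.78 ± 0.027 in Col-0 (edgeR adjusted p = 3.8e-29 and 2.1e-42). MPK11 had 47.7 and 49.6 CPM in seu-6 with NaCl, against 69.8 and 65.1 CPM in the seu-6 mock, and 25.4 and 24.2 CPM in Col-0 with NaCl, against 43.0 and 45.4 CPM in the Col-0 mock. All 4 seu-6 libraries lay above all 4 Col-0 libraries of this experiment. Its log2 fold change was -0.46 ± 0.062 in seu-6 and -0.81 ± 0.067 in Col-0 (edgeR adjusted p = 1.2e-09 and 2.0e-18). MPK6 was steady, with 56.4 to 63.2 CPM across the 8 libraries and log2 fold changes of -0.04 ± 0.057 in seu-6 and 0.06 ± 0.056 in Col-0 (edgeR adjusted p = 0.67 and 0.43).

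The phosphatase gene AP2C1 had 64.7 and 63.3 CPM in seu-6 with NaCl, against 120.0 and 122 CPM in the seu-6 mock. In Col-0 it had 42.8 and 47.8 CPM with NaCl, against 192 and 186 CPM in the mock. It was therefore 1.88-fold lower with NaCl in seu-6 and 4.09-fold lower in Col-0, with log2 fold changes of -0.91 ± 0.045 and -2.03 ± 0.046 (edgeR adjusted p = 1.8e-31 and 7.6e-56). The level of MPK3 per exon length was 5.25 times that of MPK6 in seu-6 with NaCl, against 7.24 times in the seu-6 mock, and 4.96 times in Col-0 with NaCl, against 8.90 times in the Col-0 mock.

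**Figure D2:**
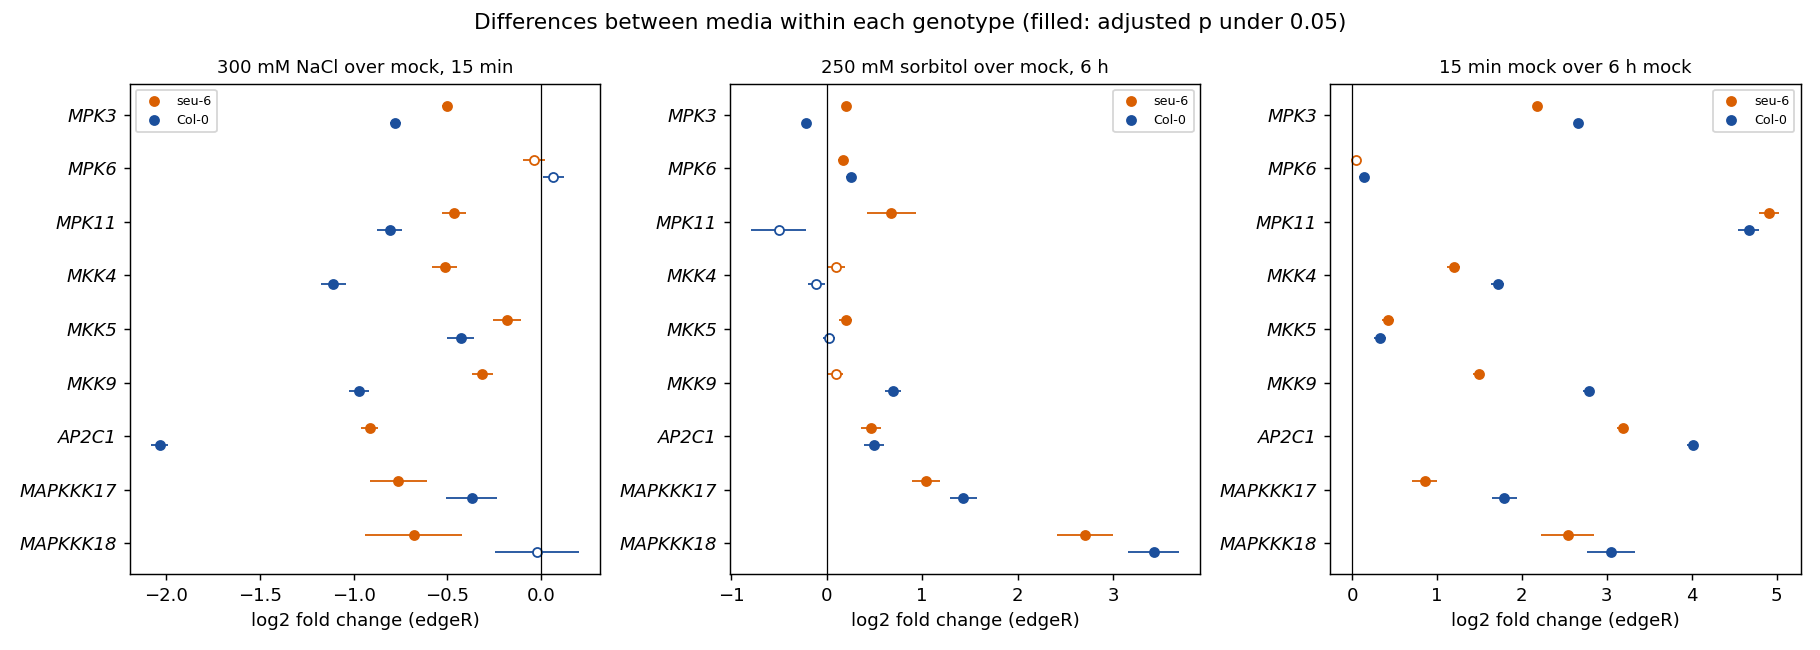
Log2 fold change of each of the 9 genes with its standard error, in 3 panels for NaCl over the 15 min mock, sorbitol over the 6 h mock and the 15 min mock over the 6 h mock, with seu-6 above Col-0 and filled points for an adjusted p under 0.05. AP2C1 lies lowest in the NaCl panel (-2.03 in Col-0) and MAPKKK18 highest in the sorbitol panel (2.71 in seu-6 and 3.42 in Col-0).

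The comparison of the genotypes asks whether the levels of these genes differ in the mutant, with and without the stress. With NaCl, 3 members were called higher in seu-6 and 4 lower, where 29.7% of all genes tested were called, 13.6% higher and 16.1% lower. In the 15 min mock, 1 member was called higher and 6 lower, where 26.9% of all genes were called, 14.0% higher and 12.9% lower. The median log2 difference, seu-6 minus Col-0, was -0.06 over the members and -0.024 over all genes with NaCl, and -0.35 and -0.002 in the mock. Of the 16 root markers, 10 were lower and 1 higher in seu-6 with NaCl, and 9 lower and 0 higher in the mock. Of the 8 stomatal lineage markers, 1 was lower and 2 higher with NaCl, and 0 were called in either direction in the mock. Of the 13 green shoot markers, 7 were higher in seu-6 and 2 lower with NaCl, and 9 higher and 2 lower in the mock. The part of these tissues in the differences was not tested.

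Both MAP kinase kinase kinases were lower in seu-6. The log2 difference of MAPKKK17 was -1.09 ± 0.15 with NaCl and -0.70 ± 0.14 in the mock (edgeR adjusted p = 1.7e-09 and 2.9e-05). That of MAPKKK18 was -1.61 ± 0.25 with NaCl and -0.96 ± 0.24 in the mock (edgeR adjusted p = 7.2e-08 and 8.3e-04). In neither gene and neither condition did the seu-6 and Col-0 libraries overlap. MKK9 was lower as well, by a log2 difference of -0.36 ± 0.054 with NaCl (edgeR adjusted p = 5.0e-08) and of -1.01 ± 0.052, or 2.02-fold, in the mock (edgeR adjusted p = 4.3e-30).

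MKK4, MPK3 and AP2C1 were called lower in seu-6 in the mock and were not called lower with NaCl. MPK3 differed by -0.06 ± 0.027 with NaCl, where edgeR gave an adjusted p of 0.084, or 0.026 without seu-6 NaCl replicate 1, and by -0.34 ± 0.026 in the mock (edgeR adjusted p = 4.0e-19). MKK4 was higher in seu-6 with NaCl by 0.24 ± 0.071 (edgeR adjusted p = 0.0057, or 0.081 without Col-0 NaCl replicate 2 and 0.063 without seu-6 NaCl replicate 2) and differed by -0.35 ± 0.066 in the mock (edgeR adjusted p = 8.5e-06). In AP2C1 the difference had opposite signs, 0.47 ± 0.048 with NaCl and -0.65 ± 0.043 in the mock (edgeR adjusted p = 5.7e-14 and 2.2e-23). MPK11 was the one member that was higher in seu-6 in both conditions, by 0.95 ± 0.066 with NaCl and 0.60 ± 0.063 in the mock (edgeR adjusted p = 4.2e-22 and 1.2e-13). MPK6 and MKK5 did not pass the test in the mock (-0.04 ± 0.057 and -0.06 ± 0.072, edgeR adjusted p = 0.66 and 0.58). MKK5 gave 0.18 ± 0.074 with NaCl (edgeR adjusted p = 0.053). It passed the threshold with DESeq2 size factors (0.039), with no filter on low counts (0.024), in a single fit of all 16 libraries (0.022), without Col-0 mock replicate 1 (0.025) and without Col-0 NaCl replicate 2 (0.026). MPK6 gave -0.14 ± 0.056 with NaCl (edgeR adjusted p = 0.046), a call that was lost in DESeq2 (0.085), with DESeq2 size factors (0.069), with no filter on low counts (0.11), in a single fit of all 16 libraries (0.10) and without any one library other than Col-0 mock replicate 2 (0.054 to 0.38).

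The difference between the NaCl responses, seu-6 minus Col-0, tests directly whether the genotypes responded unequally. It was called for 5 members, all of them positive, so that the NaCl fall was smaller in seu-6, and for 0 members in the other direction, where 7.18% of all genes tested were called, 2.59% positive and 4.59% negative. At an unadjusted p under 0.05, edgeR gave 6 positive and 0 negative, and DESeq2 called 5 and 0. Here too the counts describe members chosen with earlier results of these data known. AP2C1 had the largest difference, 1.12 ± 0.064 (edgeR adjusted p = 3.7e-26), followed by MKK9 with 0.66 ± 0.075 (3.2e-11), MKK4 with 0.59 ± 0.097 (2.0e-06), MPK11 with 0.34 ± 0.091 (0.0072) and MPK3 with 0.28 ± 0.038 (1.7e-08). The MPK11 call was lost without Col-0 mock replicate 2 (adjusted p = 0.061), without seu-6 mock replicate 2 (0.086) and in a single fit of all 16 libraries (0.061), and MKK5 (0.25 ± 0.10, adjusted p = 0.16) gained one without Col-0 mock replicate 1 (0.034). MAPKKK17 and MAPKKK18 pointed the other way without passing the test, at -0.39 ± 0.20 and -0.65 ± 0.34 (edgeR adjusted p = 0.31 and 0.32). MPK6 gave -0.10 ± 0.080 (edgeR adjusted p = 0.59). The NaCl comparisons and the genotype comparisons use the same 8 libraries and are not independent of each other.

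**Figure D3:**
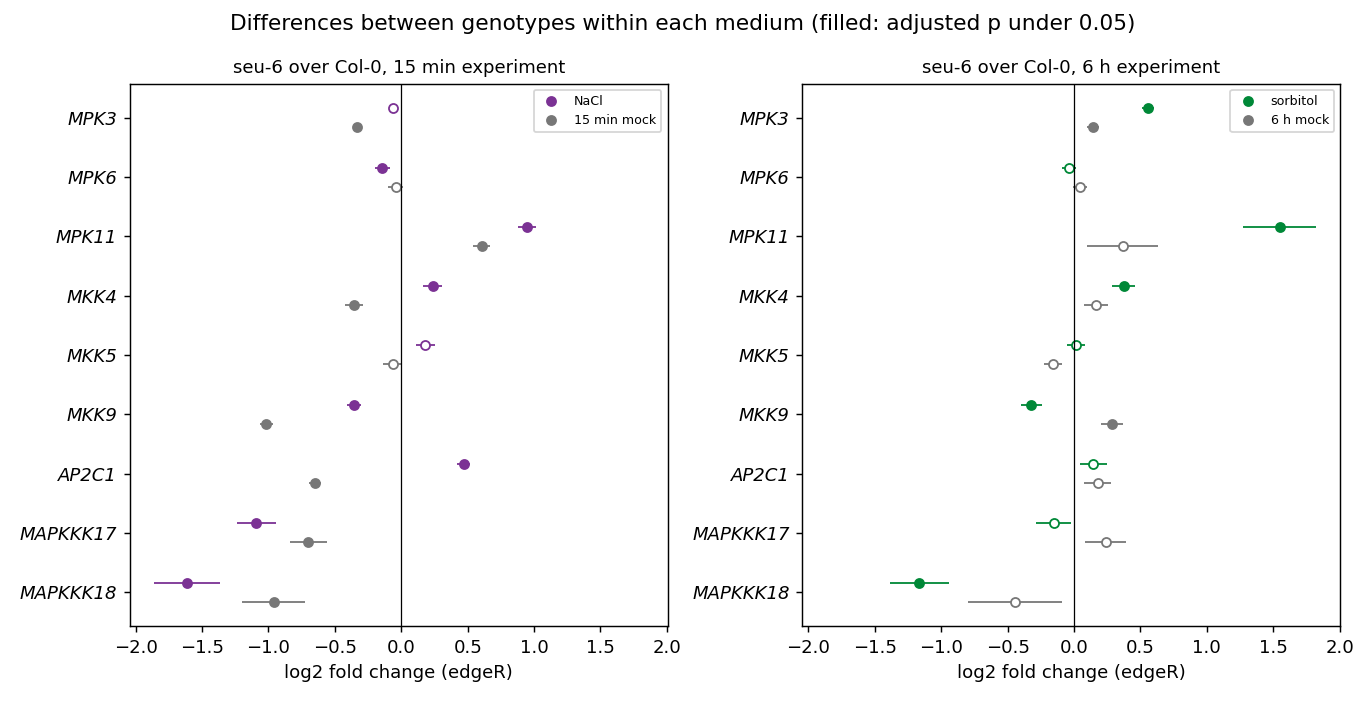
Log2 difference of seu-6 against Col-0, with its standard error, for each of the 9 genes, in 2 panels for the 15 min and the 6 h experiment, with the treated groups above their mock and filled points for an adjusted p under 0.05. MPK11 lies above 0 in every condition (called in 3 of them), MAPKKK18 below 0 in every condition (called in 3), and AP2C1 at 0.47 with NaCl and at -0.65 in the 15 min mock.

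After 6 h of sorbitol the most responsive members were the abscisic-acid-linked MAP kinase kinase kinases. In seu-6, 7 members were called higher and 0 lower (0 lower at an unadjusted p under 0.05 and in DESeq2 too, which called 6 higher), where 58.0% of all 21633 genes tested were called, 28.9% higher and 29.0% lower. In Col-0, 5 members were called higher and 1 lower, where 62.5% of all genes were called, 31.3% higher and 31.2% lower. The median log2 fold change of the members was 0.20 in seu-6 and 0.26 in Col-0, against -0.004 and -0.005 for all genes. Green shoot markers rose in the same comparisons, 13 of 13 in seu-6 and 12 of 13 in Col-0. Root markers were mixed, with 5 of 16 higher and 3 lower in seu-6, and 4 higher and 5 lower in Col-0. Of the 8 stomatal lineage markers, 1 was higher and 4 lower in seu-6, and 1 higher and 3 lower in Col-0. The part of these markers in the result was not tested.

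MAPKKK18 had 2.73 and 3.11 CPM in seu-6 with sorbitol, against 0.319 and 0.565 CPM in the seu-6 mock. In Col-0 it had 5.99 and 7.07 CPM with sorbitol, against 0.546 and 0.674 CPM in the mock. The mock levels rest on 14 to 30 reads per library. It was 6.53-fold higher with sorbitol in seu-6 and 10.7-fold higher in Col-0, with log2 fold changes of 2.71 ± 0.29 and 3.42 ± 0.26 (edgeR adjusted p = 3.5e-12 and 8.8e-18). MAPKKK17 had 9.25 and 9.18 CPM in seu-6 with sorbitol, against 4.58 and 4.31 CPM in the seu-6 mock, and 10.7 and 9.76 CPM in Col-0 with sorbitol, against 3.54 and 4.06 CPM in the Col-0 mock. Its log2 fold change was 1.04 ± 0.14 in seu-6 and 1.43 ± 0.14 in Col-0 (edgeR adjusted p = 5.0e-09 and 2.3e-13). Per exon length, the level of MAPKKK17 was 2.76 times that of MAPKKK18 in seu-6 with sorbitol, against 9.58 times in the seu-6 mock, and 1.38 times in Col-0 with sorbitol, against 5.45 times in the Col-0 mock.

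MKK9 had 21.7 and 20.1 CPM in seu-6 with sorbitol, against 18.9 and 19.9 CPM in the seu-6 mock, and 26.5 and 25.4 CPM in Col-0 with sorbitol, against 15.7 and 16.4 CPM in the Col-0 mock. It rose in Col-0 by 0.70 ± 0.082 on the log2 scale (edgeR adjusted p = 3.6e-11), and its change in seu-6 was 0.09 ± 0.082 (edgeR adjusted p = 0.33). MKK4 did not pass the test in either genotype (log2 fold change 0.10 ± 0.087 in seu-6 and -0.11 ± 0.089 in Col-0, edgeR adjusted p = 0.32 and 0.31). It had 19.6 and 21.3 CPM in seu-6 with sorbitol, against 19.4 and 18.4 CPM in the seu-6 mock, and 15.6 and 15.8 CPM in Col-0 with sorbitol, against 15.9 and 18.0 CPM in the Col-0 mock. MKK5 gave 0.20 ± 0.068 in seu-6 (edgeR adjusted p = 0.01, a call that was lost without seu-6 mock replicate 1, at 0.081, and narrowly without seu-6 sorbitol replicate 1) and 0.02 ± 0.067 in Col-0 (edgeR adjusted p = 0.77).

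MPK3 moved in opposite directions: it had 112 and 118 CPM in seu-6 with sorbitol, against 101 and 97.7 CPM in the seu-6 mock, and 76.4 and 79.4 CPM in Col-0 with sorbitol, against 93.3 and 87.8 CPM in the Col-0 mock. It rose by 0.20 ± 0.044 on the log2 scale in seu-6 and fell by 0.21 ± 0.045 in Col-0 (edgeR adjusted p = 8.1e-05 and 4.3e-05). MPK6 had 62.2 and 63.3 CPM in seu-6 with sorbitol, against 52.8 and 57.8 CPM in the seu-6 mock, and 61.5 and 66.9 CPM in Col-0 with sorbitol, against 55.8 and 52.1 CPM in the Col-0 mock. It was higher with sorbitol in both genotypes, by 0.17 ± 0.054 in seu-6 and 0.26 ± 0.054 in Col-0 (edgeR adjusted p = 0.0051 and 3.6e-05), and in seu-6 the adjusted p was 0.17, with a log2 fold change of 0.11, without seu-6 mock replicate 1. MPK11 was low in this experiment, with 4.23 and 2.78 CPM in seu-6 with sorbitol, against 2.39 and 1.94 CPM in the seu-6 mock, and 1.46 and 0.920 CPM in Col-0 with sorbitol, against 1.73 and 1.66 CPM in the Col-0 mock. Its log2 fold change of 0.68 ± 0.26 in seu-6 passed the test (edgeR adjusted p = 0.019), but not without seu-6 mock replicate 2 (0.15), without seu-6 sorbitol replicate 1 (0.39, log2 fold change 0.35) or in DESeq2 (0.060). In Col-0 it was -0.50 ± 0.29 (edgeR adjusted p = 0.12), or past the threshold without Col-0 sorbitol replicate 1 (0.035) and in a single fit of all 16 libraries (0.028).

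AP2C1 had 18.1 and 17.7 CPM in seu-6 with sorbitol, against 13.2 and 12.6 CPM in the seu-6 mock, and 14.5 and 17.8 CPM in Col-0 with sorbitol, against 11.1 and 11.8 CPM in the Col-0 mock. The phosphatase gene, lower after 15 min of NaCl, was thus higher after 6 h of sorbitol, by 0.46 ± 0.10 in seu-6 and 0.50 ± 0.10 in Col-0 on the log2 scale (edgeR adjusted p = 6.3e-05 and 2.2e-05). Time, agent and seedling age differ between the experiments, so these responses are set side by side only.

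With sorbitol, 3 members were called higher in seu-6 and 2 lower, where 34.9% of all genes tested were called, 17.5% higher and 17.4% lower. MPK11 was higher by 1.55 ± 0.27, MPK3 by 0.56 ± 0.045 and MKK4 by 0.37 ± 0.089 on the log2 scale (edgeR adjusted p = 4.6e-06, 2.2e-16 and 5.4e-04). MAPKKK18 was lower by a log2 difference of -1.16 ± 0.22 and MKK9 by -0.32 ± 0.081 (edgeR adjusted p = 1.7e-05 and 0.001). For MAPKKK17 the log2 difference was -0.15 ± 0.13 and for AP2C1 0.15 ± 0.099 (edgeR adjusted p = 0.41 and 0.27). Of the green shoot markers, 8 of 13 were lower in seu-6 with sorbitol and 1 was higher. Of the 16 root markers 1 was lower and 2 higher, and of the 8 stomatal lineage markers 1 was lower and 1 higher. The part of these markers in the result was not tested.

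In the 6 h mock 2 members were called higher in seu-6 and 0 lower, where 27.8% of all genes tested were called, 16.0% higher and 11.8% lower. At an unadjusted p under 0.05, edgeR gave 1 member lower, MKK5 (-0.16 ± 0.068), and DESeq2 called 0 lower. The called members were MPK3 (0.15 ± 0.044, edgeR adjusted p = 0.009) and MKK9 (0.28 ± 0.083, edgeR adjusted p = 0.0063). The MPK3 call was lost without Col-0 mock replicate 2 (0.18) or seu-6 mock replicate 1 (0.097), and the MKK9 call without Col-0 mock replicate 1 (0.061) or seu-6 mock replicate 2 (0.072). All 13 green shoot markers were lower in seu-6 in that mock. Of the 16 root markers 1 was lower and 1 higher, and of the 8 stomatal lineage markers 2 were lower and 1 higher. The part of these markers in the result was not tested.

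The difference between the sorbitol responses, seu-6 minus Col-0, was called for 3 members, 2 positive and 1 negative, where 13.0% of all genes tested were called, 5.62% positive and 7.38% negative. It was 0.41 ± 0.063 for MPK3 (edgeR adjusted p = 9.5e-07), so the opposite directions of MPK3 differed by more than their error. MKK9 gave -0.60 ± 0.12 (edgeR adjusted p = 7.6e-05): its sorbitol response was smaller in seu-6, as its NaCl response had been. MPK11 gave 1.18 ± 0.38 (edgeR adjusted p = 0.029), a call that was lost in DESeq2 (0.091) and without Col-0 mock replicate 1 (0.067), Col-0 mock replicate 2 (0.051), seu-6 mock replicate 2 (0.11), Col-0 sorbitol replicate 2 (0.18) or seu-6 sorbitol replicate 1 (0.25). For MAPKKK18 the difference was -0.72 ± 0.42 and for MAPKKK17 -0.39 ± 0.20 (edgeR adjusted p = 0.31 and 0.23), so their responses were not shown to differ between the genotypes at this depth and number of replicates.

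The widest contrast for most of these genes was between the mocks. All 9 members were called higher in the Col-0 15 min mock than in the Col-0 6 h mock, where 62.5% of all 22582 genes tested were called, 30.5% higher and 32.1% lower, and 8 members were called higher in seu-6, where 60.3% were called, 29.2% higher and 31.1% lower. MPK11 was higher by 4.91 ± 0.12 in seu-6 and 4.67 ± 0.12 in Col-0 on the log2 scale, and AP2C1 by 3.19 ± 0.066 in seu-6 and 4.01 ± 0.066 in Col-0. MKK9 was higher by 1.49 ± 0.064 in seu-6 and 2.79 ± 0.064 in Col-0, and MPK3 by 2.18 ± 0.035 in seu-6 and 2.66 ± 0.036 in Col-0 (edgeR adjusted p at most 8.5e-31 for these 8 values). The upstream kinases MAPKKK18, MAPKKK17 and MKK4 were higher by 2.54 ± 0.31, 0.86 ± 0.15 and 1.20 ± 0.076 in seu-6 and by 3.05 ± 0.28, 1.79 ± 0.15 and 1.72 ± 0.076 in Col-0, and MKK5 by 0.43 ± 0.071 in seu-6 and 0.33 ± 0.069 in Col-0. MPK6 stood apart, at 0.05 ± 0.056 in seu-6 (edgeR adjusted p = 0.47) and 0.14 ± 0.056 in Col-0 (0.031, or 0.16 without Col-0 15 min mock replicate 2 and 0.17 without Col-0 6 h mock replicate 2). Seedling age, time in the medium and the experiment itself differ between these mocks and cannot be told apart. Markers moved in the same comparisons: 13 of 13 green shoot markers were higher in the 15 min mock in seu-6, and 12 of 13 in Col-0. Stomatal lineage markers were lower, 5 of 8 in seu-6 and 6 of 8 in Col-0. Root markers were mixed, with 6 of 16 higher and 4 lower in seu-6, and 6 higher and 2 lower in Col-0. The part of these markers in the result was not tested. With NaCl, MPK3 was still at 319.8 to 335 CPM, against 76.4 to 118 CPM in all libraries of the second experiment.

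Over the 16 libraries, the log2 levels of MPK3, MPK11, MKK4, MKK9 and AP2C1 varied together, with Pearson r from 0.863 (MPK11 and MKK9) to 0.975 (MKK4 and AP2C1). MAPKKK17 and MAPKKK18 varied together at 0.909, and MPK6 was closest to MAPKKK18 at 0.838. These values describe 8 groups in 2 experiments and include the gap between the experiments. By Pearson r over the 16 libraries, the genes most like MPK3 among 16107 compared were AT5G01950 (0.997), ERF6 (0.996) and DIC2 (0.996). MKK4 was closest to AT2G42760 (0.980), CAF1b (0.978) and ACS7 (0.976), and MKK9 to AT3G19240 (0.990), CK1 (0.988) and TOPP9 (0.988). For MPK11 they were LrgB (0.995), AT5G25440 (0.994) and AT4G36550 (0.992), and for AP2C1 they were CAF1b (0.994), UCP5 (0.994) and COBL8 (0.994). MAPKKK17 was closest to VTC5 (0.973), WRKY6 (0.970) and HCHIB (0.966), and MAPKKK18 to AT1G23200 (0.988), CP5 (0.971) and AT1G78070 (0.965). These lists depend on the measure. By Spearman correlation, which uses ranks, only LrgB for MPK11 and AT1G23200 for MAPKKK18 stayed among the first 3 genes, each at rank 2. AT2G42760, first by Pearson r for MKK4, was at rank 182, and AT3G19240, first for MKK9, at rank 161.

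The other genes of MAP kinase signalling were read from a list of 62, of which 60 were tested in the NaCl experiment and 59 in the sorbitol experiment. This list too was chosen with earlier results of these data known. With NaCl, 5 were called higher and 21 lower in seu-6, and 7 higher and 25 lower in Col-0, with medians of -0.10 and -0.06 on the log2 scale. Of all genes, 12.0% were higher and 17.9% lower in seu-6, and 15.8% higher and 17.6% lower in Col-0. By role in Col-0, 9 of 16 MAP kinase kinase kinases were lower and 1 higher, and 5 of 17 MAP kinases lower and 3 higher. Of the 9 phosphatases 3 were lower and 1 higher, and of the 13 substrates or partners 8 and 2. The MAP kinase kinases of the list, which leaves out MKK4, MKK5 and MKK9, did not share the fall. Of the 5 tested, 0 were lower and 0 higher in Col-0, and 0 lower and 2 higher in seu-6. The 4 genes with the smallest adjusted p were the same in both genotypes, namely STZ, ERF6, MYB44 and MAPKKK14. STZ, a zinc-finger repressor, fell by 0.79 ± 0.033 in seu-6 and by 1.64 ± 0.033 in Col-0 on the log2 scale, and ERF6, an ethylene response factor, by 1.02 ± 0.039 and 1.53 ± 0.038 (edgeR adjusted p at most 1.4e-36 for the 4 values). MYB44, a stress transcription factor, fell by 1.38 ± 0.035 in seu-6 and 1.41 ± 0.035 in Col-0, and MAPKKK14, a relative of MAPKKK17 and MAPKKK18, by 1.91 ± 0.071 in seu-6 and 1.66 ± 0.066 in Col-0 (edgeR adjusted p at most 5.0e-38). The difference between the NaCl responses was positive for 5 of the list and negative for 1, where 2.59% of all genes were positive and 4.59% negative. By adjusted p the first 4 were STZ (0.86 ± 0.046), ERF6 (0.51 ± 0.054), ERF104 (0.48 ± 0.055) and ACS6 (0.47 ± 0.049), the last an enzyme of ethylene synthesis stabilised by MPK3 and MPK6 (edgeR adjusted p = 6.5e-28, 1.8e-12, 6.3e-11 and 8.6e-13).

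Between the genotypes, 8 of the list were called higher in seu-6 and 11 lower with NaCl, and 10 higher and 14 lower in the 15 min mock. Of all genes, 13.6% were higher and 16.1% lower with NaCl, and 14.0% and 12.9% in the mock, so the count with NaCl was near that background. ERF6, STZ, ERF104 and ACS6 were all lower in seu-6 in the mock, with log2 differences of -0.68 ± 0.036, -0.57 ± 0.032, -0.66 ± 0.038 and -0.53 ± 0.035 (edgeR adjusted p at most 2.2e-23). STZ was higher in seu-6 with NaCl by 0.29 ± 0.034 and in the 6 h mock by 0.62 ± 0.096 (edgeR adjusted p = 1.4e-11 and 4.7e-07), and ERF104 was higher with sorbitol by 0.93 ± 0.11 (edgeR adjusted p = 7.2e-11). MPK19 and MAPKKK14 were lower in seu-6 with NaCl, at -0.59 ± 0.065 and -0.65 ± 0.074 (edgeR adjusted p = 1.2e-12 and 4.9e-12). Their levels were also lower in the 15 min mock. MPK19 had 39.4 and 44.1 CPM there in seu-6, against 57.2 and 53.8 CPM in Col-0, and MAPKKK14 60.4 and 62.2 CPM, against 83.9 and 76.8 CPM. Genes are named here by their rank in each condition, so a condition not given for a gene does not mean no difference there. MEKK3, a neighbour and relative of MEKK1, was higher in seu-6 with NaCl by 0.66 ± 0.045, with sorbitol by 0.46 ± 0.053 and in the 6 h mock by 0.39 ± 0.053 (edgeR adjusted p = 1.7e-22, 1.2e-10 and 1.5e-08). In the 15 min mock the level of MEKK3 was higher in seu-6 as well, at 102 and 104 CPM, against 77.0 and 72.4 CPM in Col-0. In the second experiment, 13 of the list were higher in seu-6 and 9 lower with sorbitol, and 18 higher and 2 lower in the mock. Of all genes, 17.5% were higher and 17.4% lower with sorbitol, near the counts of the list, and 16.0% higher and 11.8% lower in the mock. WRKY33, a defence regulator phosphorylated by MPK3 and MPK6, was higher in seu-6 with sorbitol (0.44 ± 0.051, edgeR adjusted p = 1.0e-10), and ACS2, an ethylene synthesis enzyme, was lower (-1.17 ± 0.20, edgeR adjusted p = 1.6e-06). In the mock, MPK17 and MYB44 were higher in seu-6 by 0.38 ± 0.039 and 0.38 ± 0.058 (edgeR adjusted p = 5.5e-12 and 2.1e-07).

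With sorbitol, 24 of the list were called higher and 11 lower in seu-6, and 28 higher and 7 lower in Col-0, with medians of 0.12 and 0.19 on the log2 scale. Of all genes, 28.9% were higher and 29.0% lower in seu-6, and 31.3% higher and 31.2% lower in Col-0, so the called total of the list was near the background. ERF104 was lower with sorbitol, at a log2 fold change of -0.84 ± 0.097 in seu-6 and -1.44 ± 0.10 in Col-0 (edgeR adjusted p = 2.2e-11 and 4.4e-19). MPK5 rose by 0.89 ± 0.083 in seu-6 and 0.97 ± 0.080 in Col-0, MPK19 by 0.83 ± 0.056 and 0.67 ± 0.056, ACS6 by 1.09 ± 0.083 and 0.97 ± 0.084, and WRKY33 by 0.58 ± 0.051 and 0.29 ± 0.052 (edgeR adjusted p at most 2.8e-06). MPK7 rose by 0.94 ± 0.068 in seu-6 and 1.12 ± 0.068 in Col-0, and MKK3, the kinase between MAPKKK17 or MAPKKK18 and MPK7, rose by 0.65 ± 0.13 and 0.76 ± 0.13 (edgeR adjusted p = 2.2e-18, 5.9e-22, 2.2e-05 and 6.8e-07). MPK1 rose by 0.29 ± 0.12 in seu-6 and 0.41 ± 0.12 in Col-0 (edgeR adjusted p = 0.035 and 0.0028), while MPK2 gave 0.09 ± 0.067 and 0.10 ± 0.068 and MPK14 0.15 ± 0.30 and 0.23 ± 0.30, none of which passed the test. MKK3, MPK1, MPK2 and MPK14 are named for their place in this module, after their values were seen. The difference between the sorbitol responses was called for 2 of the list with a positive and 6 with a negative sign, near the background of 5.62% positive and 7.38% negative over all genes. The smallest adjusted p values were those of MYB44 (-0.57 ± 0.081, edgeR adjusted p = 1.6e-07), MPK17 (-0.38 ± 0.055, 3.5e-07), ACS2 (-1.66 ± 0.29, 1.7e-05) and ERF104 (0.60 ± 0.14, 0.0017).

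**Figure D4:**
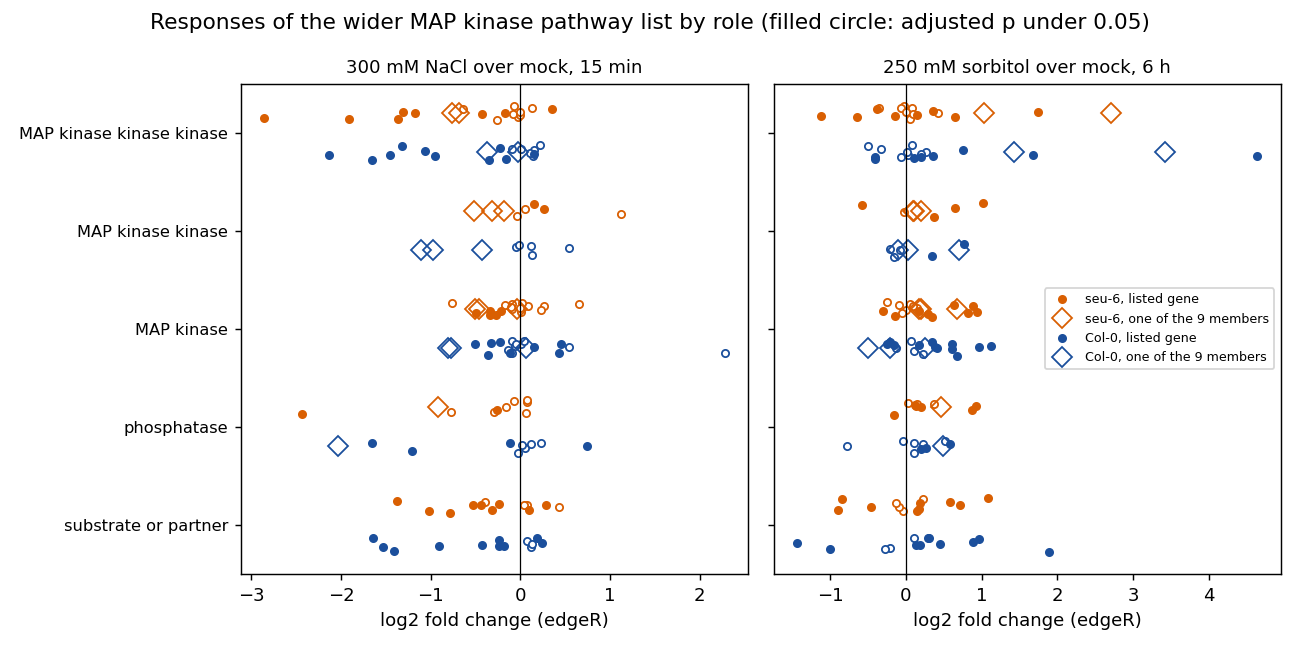
Log2 fold changes of the listed MAP kinase signalling genes by role, with 1 circle per gene (filled for an adjusted p under 0.05, open otherwise) and diamonds for the 9 members, whatever their call. In Col-0 with NaCl 25 of 60 listed genes were lower and 7 higher, and with sorbitol 28 of 59 were higher and 7 lower.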

How the data were processed

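Poly(A) RNA-seq was made from whole seedlings in 8 groups of 2 biological replicates. The authors deposited raw counts of reads per gene, made with HISAT2 2.2.1 and HTSeq 0.13.5 on TAIR10, per the submitters' processing notes, which also name DESeq2. No source used here gives the strand setting or the annotation release. Besides the genes, 5 summary lines were set aside. Reads outside genes came to 8.78 to 12.7% of the reads in these files and ambiguous reads to 3.54 to 4.44%.

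Counts were tested with edgeR 4.0.16 (R 4.3.3; TMM scaling, filterByExpr, robust quasi-likelihood F test, Benjamini-Hochberg adjustment over all genes tested), separately for each experiment of 8 libraries, and over all 16 libraries for mock against mock. The standard error is the log2 fold change divided by the square root of F. Levels are CPM on TMM-scaled library sizes, and correlations use log2 CPM with a prior count of 2. Each result was recomputed with DESeq2 1.42.0, with no low-count filter, with DESeq2 size factors given to edgeR, with the replicate number as a block, in 1 fit of all 16 libraries and without each library in turn. The script was tested on simulated data. Each edgeR p-value sets a difference against a spread estimated over all libraries of the fit and drawn towards that of other genes. With 2 replicates per group, that spread comes only from these samples.

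The 9 members and the gene lists were chosen with earlier results of these data known. The text names all 9 members and SEU, and from the list of 62 the 4 called genes with the smallest adjusted p in a comparison where it is described. MKK3, MPK1, MPK2 and MPK14 of that list are exceptions, named for their place in a module after their values were seen. For members whose group means span at least 1 log2 CPM, the text also names the 3 genes with the highest Pearson r. These were taken over the 16 libraries among genes with a mean of at least 2 log2 CPM. Sequences and coordinates come from RefSeq's annotation of TAIR10.1, since the count files hold none.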

Additional observations from a re-analysis of the deposited data

Results flagged for a closer look

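These results were singled out because the response to a treatment differed between seu-6 and Col-0 by a test of the difference itself. For NaCl, the difference of the log2 responses (seu-6 minus Col-0) was 1.12 for AP2C1, 0.66 for MKK9, 0.59 for MKK4, 0.34 for MPK11 and 0.28 for MPK3. In each of these genes both genotypes were lower with NaCl than in the mock, and the fall was smaller in seu-6. For sorbitol, the difference was 1.18 for MPK11, 0.41 for MPK3 and -0.60 for MKK9. The sorbitol call of MPK11 was lost in DESeq2, and both MPK11 calls depended on single libraries. With 1 library left out, its difference ranged from 0.853 to 1.558 for sorbitol and from 0.294 to 0.414 for NaCl. MPK3 was higher with sorbitol in seu-6 and lower in Col-0, whereas MKK9 was called higher in Col-0 alone.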

How the results depend on the processing

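Of 1530 recomputations of the 108 log2 values of the members, 1455 kept their direction and side of the threshold, 51 lost a call, 10 gained one and 14 changed sign. All values stayed on the same side in 81 of the 108. Every change of sign concerned a value that did not pass the test, and came with 1 library left out. With 1 library left out, MPK6 ranged from -0.018 to 0.124 and MAPKKK18 from -0.390 to 0.237 for NaCl in Col-0. For seu-6 against Col-0, MPK6 ranged from -0.112 to 0.021 and MKK5 from -0.162 to 0.027 in the 15 min mock, MPK6 from -0.019 to 0.113 in the 6 h mock, and MPK6 from -0.103 to 0.019, MKK5 from -0.003 to 0.020 and AP2C1 from -0.000 to 0.295 with sorbitol. The difference between sorbitol responses ranged from -0.166 to 0.129 for AP2C1, and the difference between mocks in seu-6 from -0.017 to 0.128 for MPK6. In the 6 h mock, the members called numbered 1 to 2. Over all genes, those called higher with NaCl in Col-0 numbered 2315 without Col-0 NaCl replicate 2, against 3482, and negative differences between the NaCl responses numbered 657 without Col-0 mock replicate 1, 619 without Col-0 NaCl replicate 1 and 647 without its replicate 2, against 1013. The cause was not tested. Same-numbered libraries did not deviate together (r from -0.05 to 0.071 over 12 pairs), so the numbers were not taken as pairing. With the replicate block, 107 of 108 values kept their call, and MKK5 in seu-6 against Col-0 with NaCl gained one (0.182, edgeR adjusted p = 0.048). Depth limits MAPKKK18 in the 6 h mocks, which had 14 to 30 reads per library.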

Other observations

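The balance between related members also differed by group. Per exon length, the level of MPK11 was 0.150 times that of MPK3 in seu-6 with NaCl, against 0.0746 times in Col-0 with NaCl, and 0.146 times in the seu-6 15 min mock, against 0.0763 times in the Col-0 15 min mock. NaCl left this ratio nearly where it was in each genotype. In the second experiment it was 0.0308 in seu-6 with sorbitol, against 0.0154 in Col-0 with sorbitol, and 0.0219 in the seu-6 mock, against 0.0188 in the Col-0 mock. The level of MKK4 relative to MKK5 depended on the length used. Per exon length it was 1.11 in seu-6 with NaCl and 1.07 in Col-0 with NaCl (0.985 and 1.16 in its 2 libraries), against 1.40 in the seu-6 15 min mock and 1.72 in the Col-0 15 min mock. Per coding length it was 0.886 in seu-6 with NaCl and 0.854 in Col-0 with NaCl, against 1.11 in the seu-6 15 min mock and 1.37 in the Col-0 15 min mock. With either length it was below 1 in the second experiment, per exon length 0.765 in seu-6 with sorbitol, 0.597 in Col-0 with sorbitol, 0.819 in the seu-6 mock and 0.653 in the Col-0 mock. These ratios are descriptions with no test.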
